A study of Mus musculus with 6 samples.

Results

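The amylase gene cluster of the mouse was followed in 266.6 cells, a line derived from a mouse pancreatic acinar tumour, by RNA sequencing. Its members are the 7 genes with the symbols Amy1, Amy2a1, Amy2a2, Amy2a3, Amy2a4, Amy2a5 and Amy2b, chosen by symbol from 20596 genes in the deposited table, and all 7 were found. One group held 266.6 cells exposed for up to 40 days to medium conditioned by cancer-associated fibroblasts (CAF_CM, 3 libraries), and it was set against 266.6 cells labelled control (3 libraries). Both groups are the same line, grown in DMEM HG with 10% FBS, so the comparison rests on 1 tumour line and not on normal acinar tissue. The labels carry the same treatment text, with its 40 days, on the control samples too and do not say how long those were kept, so an effect of the conditioned medium and one of culture time cannot be told apart. Whether the replicates were separate cultures is not stated either, and p-values then cover only the variation among these libraries, possibly technical.

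Alpha-amylase cuts the internal bonds of starch and glycogen and is one of the main enzymes that pancreatic acinar cells store in zymogen granules. In the mouse the Amy2 genes are the pancreatic copies, while Amy1 is known for salivary gland and liver, where it is read from separate start sites. Acinar enzyme genes are classically controlled by PTF1, a complex of PTF1A, an E-protein such as TCF3 or TCF12, and RBPJL or RBPJ, which binds a bipartite site made of an E-box and a TC box. Loss of amylase is commonly used as a sign that acinar cells give up their identity during acinar-to-ductal metaplasia, a conversion of the kind the series title names.

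All 7 genes lie on mouse chromosome 3, and their annotated upstream sequences are shown first because they show which copies share their start region. RefSeq (build GRCm38.p6) gives 1 start for each Amy2 gene and 2 for Amy1, all on the minus strand. The 250 bases before the start are chr3:113258700-113258949 for Amy2a5, chr3:113324053-113324302 for Amy2a3, chr3:113156728-113156977 for Amy2b, chr3:113577751-113578000 for the first Amy1 start and chr3:113574763-113575012 for the second. Capitals mark matches to TGGGA (the TC box, TCCCA on the other strand), CANNTG (the E-box, the same on both strands) and TATAAA, each searched on both strands.
Amy2a5: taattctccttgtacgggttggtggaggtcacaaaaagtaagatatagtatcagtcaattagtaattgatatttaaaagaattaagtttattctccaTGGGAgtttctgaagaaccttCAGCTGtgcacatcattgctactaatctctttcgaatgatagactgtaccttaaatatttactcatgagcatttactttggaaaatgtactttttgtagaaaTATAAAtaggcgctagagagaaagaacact
Amy2a3: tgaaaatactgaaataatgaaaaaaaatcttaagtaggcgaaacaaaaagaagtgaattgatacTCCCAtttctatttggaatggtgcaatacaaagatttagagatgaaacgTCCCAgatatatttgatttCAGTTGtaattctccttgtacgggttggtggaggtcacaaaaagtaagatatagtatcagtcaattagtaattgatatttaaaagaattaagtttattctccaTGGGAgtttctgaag
Amy2b: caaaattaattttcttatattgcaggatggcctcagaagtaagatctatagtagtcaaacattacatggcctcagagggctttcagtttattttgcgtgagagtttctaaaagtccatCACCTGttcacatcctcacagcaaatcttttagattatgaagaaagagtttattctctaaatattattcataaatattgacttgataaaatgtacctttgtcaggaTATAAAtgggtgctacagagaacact
Amy1 first start: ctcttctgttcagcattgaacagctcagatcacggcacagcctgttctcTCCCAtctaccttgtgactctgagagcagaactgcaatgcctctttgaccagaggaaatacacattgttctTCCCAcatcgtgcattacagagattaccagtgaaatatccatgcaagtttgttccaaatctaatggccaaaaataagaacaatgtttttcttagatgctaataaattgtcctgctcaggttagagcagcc
Amy1 second start: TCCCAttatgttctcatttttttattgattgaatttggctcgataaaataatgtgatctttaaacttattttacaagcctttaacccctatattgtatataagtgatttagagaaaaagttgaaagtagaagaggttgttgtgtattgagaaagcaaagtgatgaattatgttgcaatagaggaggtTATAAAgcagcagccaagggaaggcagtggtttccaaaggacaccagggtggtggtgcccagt

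In Amy2a5 the TC box began at -153 and the E-box at -132, with 16 bases between them, and TATAAA began at -30, counting the first transcribed base as 0. A TC box followed on the same strand by an E-box 11 to 20 bases on was present in the 300-base window of 5 of the 7 genes, Amy2a1 to Amy2a5, against 4.35% of all 32851 promoter windows of that length. The E-box alone was found in 72.3% of those windows, the TC box alone in 61.6% and TATAAA in 13.6%, so single matches are common. In the 250 bases before the start alone, the TC box and E-box pair was present in Amy2a5 only, against 3.57% of promoter windows of that length. The spacing was chosen after the Amy2a5 sequence had been read. For Amy2a2, Amy2a3 and Amy2a4 the 3 windows were the same sequence, and their annotated start lies upstream, so that the same 27-base match fell at -15, shifted by 138 bases from its place in Amy2a5. Amy2a5 and Amy2a3 had the same base at 162 of the 162 positions where their windows overlap, and Amy2a1 and Amy2a5 at 161 of 162. Amy2b had an E-box at -132 and TATAAA at -26 but no TGGGA in this window. Neither Amy1 start had the joint match in its window. These matches describe letters and were not measured as binding sites.

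**Figure D1:**
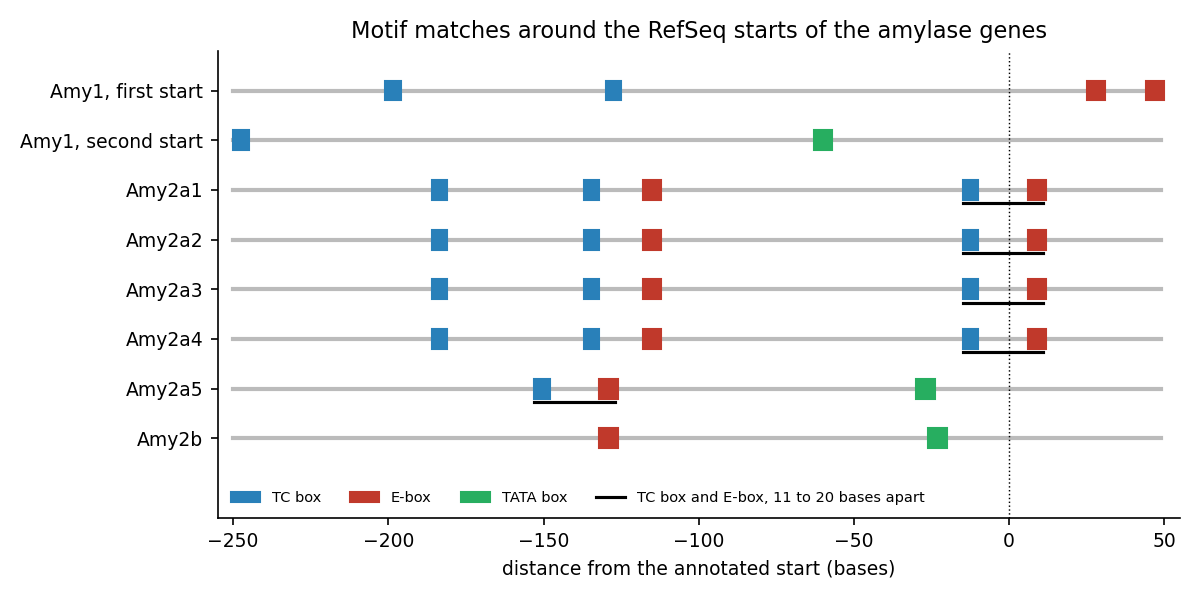
Positions of motif matches (coloured boxes) from 250 bases before to 49 bases after the first transcribed base of each annotated start (x axis, bases), with 1 row per start. The black bar marks a TC box and an E-box 11 to 20 bases apart, which is at -153 in Amy2a5 and at -15 in Amy2a1 to Amy2a4.

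Transcripts of the copies were also compared, since reads that match several copies cannot be assigned to one. Among the longest GENCODE transcripts, every 100-base stretch of Amy2a2, Amy2a3 and Amy2a4 (100% of 3618 each) also occurred in a transcript of another amylase gene. The share was 94.6% for Amy2a1, 47.4% for Amy2a5 and 11.4% for Amy2b. Of Amy1, 0 of 1886 such stretches were shared, and 2.69% of its 50-base stretches were. Which of the transcripts searched held the shared stretches was not recorded. The separate values of Amy2a1 to Amy2a5 are therefore uncertain. The summed cluster does not depend on how reads were divided among its copies, provided that each read was counted only once. Read length and the handling of reads that match several copies are not given in the sources used here. The GENCODE model of Amy1 overlaps that of the neighbouring gene Rnpc3 on the same strand.

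Values are the authors' normalized counts, read counts divided by 1 factor per library. Behind them stood 18622370 to 21002226 reads per library. Across all genes the biological coefficient of variation was 8.23% among CAF_CM and 2.20% among control libraries. Of 16169 genes tested, 2953 were higher and 2602 lower in CAF_CM (limma with Benjamini-Hochberg adjustment, adjusted p under 0.05), and with library totals as the only scaling 2231 were higher and 3188 lower. Of the acinar genes set as markers, Ctrb1, Cela1, Cpa1, Rbpjl and Ptf1a were present in every library at 722 normalized counts or more. Bhlha15, another of these markers, had 170 to 214 normalized counts. Pnlip, Cel and Prss1, the remaining markers, had at most 31 normalized counts in any library.

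Amylase transcripts were less abundant in CAF_CM than in control libraries. The 7 genes together had 804, 523 and 804 normalized counts in CAF_CM replicates 1, 2 and 3, against 1380.2, 1485 and 1421 in control replicates 1, 2 and 3. The groups did not overlap, and CAF_CM replicate 2 was the lowest library. The means were 710.4 ± 162 in CAF_CM and 1429 ± 53.0 in control libraries (SD, n = 3 each), so that CAF_CM stood at 49.7% of control. Fitted as 1 row in place of the 7, the sum fell by 1.03 on the log2(value + 1) scale (SE 0.13, 95% interval -1.33 to -0.74, adjusted p = 0.000232, limma). Only 248 of the other genes tested, 1.53%, had a lower log2 fold change. Without CAF_CM replicate 2 the log2 fold change was -0.83 (adjusted p = 2.68e-06).

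As a share of all reads (CPM), amylase took 40.0, 26.2 and 40.3 CPM in CAF_CM replicates 1, 2 and 3, against 71.8, 76.5 and 72.9 in control replicates 1, 2 and 3. The 95% exact binomial intervals were 37.3 to 42.9, 24.0 to 28.5 and 37.7 to 43.1 CPM for CAF_CM replicates 1, 2 and 3. For control replicate 1, the control library closest to the treated ones, the interval was 68.1 to 75.6 CPM. These intervals cover counting error only. The coefficient of variation of the sum was 22.8% among CAF_CM libraries, where counting error alone gives about 3.73%, and 3.71% among control libraries, where it gives about 2.66%. In bulk RNA, fewer cells that make amylase and less amylase RNA per cell cannot be told apart.

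Of the 7 members, 6 were called lower and 0 higher, against 16.1% of all genes tested called lower, 18.3% called higher and 34.4% called in either direction. The count of higher members was also 0 at an unadjusted p under 0.05 and in edgeR, DESeq2 and limma-voom, and each of these tools called 6 lower. In 6 members no CAF_CM library reached the lowest control library, which was the case for 22.9% of all genes tested. Because the Amy2a copies share reads, the 6 are not independent observations. All 7 passed the filter on low values.

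Amy1, the member with the fewest shared stretches, fell by 1.07 on the log2 scale (SE 0.11, adjusted p = 8.27e-05). It had 84.4, 73.5 and 86.4 normalized counts in CAF_CM, against 173, 175 and 165 in control libraries. The groups were tight and far apart, with the highest CAF_CM library well below the lowest control library.

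Amy2a3, the pancreatic copy with the highest mean count in both groups, had 188, 118 and 168 normalized counts in CAF_CM replicates 1, 2 and 3, against 296, 337 and 387 in control replicates 1, 2 and 3. Its log2 fold change was -1.12 (SE 0.16, adjusted p = 0.000406). Amy2a4 had 186, 105 and 177 normalized counts in CAF_CM and 283, 313 and 277 in control libraries. In both copies CAF_CM replicate 2 was far below the other treated libraries. The smallest fall among the called copies was that of Amy2a4 (log2 fold change -0.94, SE 0.18, adjusted p = 0.00224).

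Amy2a2 had 158, 80.3 and 162 normalized counts in CAF_CM, against 280.3, 275 and 249 in control libraries. Its log2 fold change of -1.07 had the largest SE of the called members, 0.22 (adjusted p = 0.00303), and it was -0.74 without CAF_CM replicate 2 (adjusted p = 0.000165). Amy2a5 had 143, 109 and 157 normalized counts in CAF_CM, against 257, 295 and 251 in control libraries (log2 fold change -0.98, SE 0.13, adjusted p = 0.000324). Groups were apart in both genes, and CAF_CM replicate 2 was again the lowest. Amy2a1, whose GENCODE transcript is short and incomplete at its 3′ end, had 32.9, 26.4 and 40.8 normalized counts in CAF_CM, against 62.6, 77.5 and 81.6 in control libraries. It fell by 1.14 on the log2 scale, the lowest estimate among the members (SE 0.19, adjusted p = 0.00118), though it rested on 27 to 78 reads per library.

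Amy2b was hardly detected. It had 11.3, 11.8 and 13.3 normalized counts in CAF_CM, against 27.9, 12.2 and 9.42 in control libraries. The groups overlapped, and the mean of the control group was set by its replicate 1. The log2 fold change of -0.28 had a 95% interval from -1.08 to 0.53 (adjusted p = 0.600), and it was 0.16 without control replicate 1. RefSeq lists Amy2b as protein coding, and GENCODE lists it as an unprocessed pseudogene. It rested on 9 to 29 reads per library, and the log2 fold change of Amy1, -1.07, lies within its interval.

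**Figure D2:**
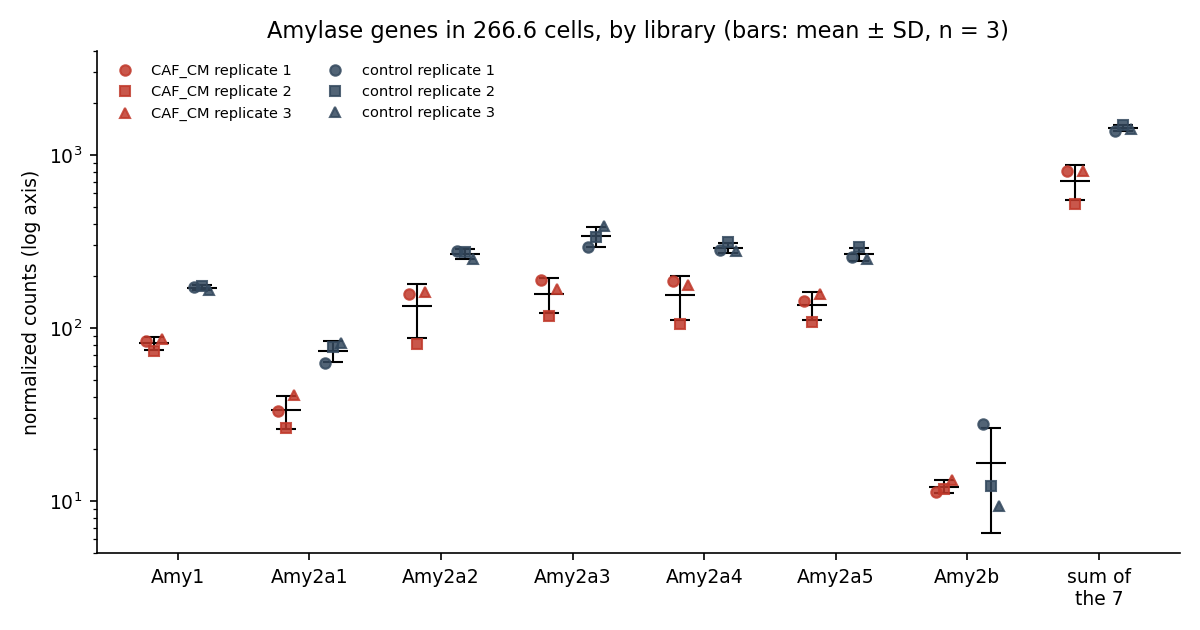
Normalized counts (log axis) of the 7 amylase genes and their sum in 3 CAF_CM and 3 control libraries, with a symbol for each replicate and bars for the mean ± SD. In Amy1, Amy2a1 to Amy2a5 and the sum the CAF_CM libraries lie below all control libraries, with replicate 2 lowest, while in Amy2b the groups overlap.

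Per kilobase of the longest GENCODE transcript, the mean levels of 6 members lay between 35.9 and 42.5 normalized counts per kilobase in CAF_CM and between 72.1 and 91.4 in control libraries. The lengths used were 3717 bases for Amy2a2, Amy2a3 and Amy2a4, 3715 for Amy2a5, 1985 for Amy1 and 890 for Amy2a1. The gene models on which reads were counted are not given, so levels of genes with unlike lengths are comparable only under these lengths. In CAF_CM the order was Amy2a3 (42.5 ± 9.82), Amy2a4 (41.9 ± 12.0), Amy1 (41.0 ± 3.51), Amy2a1 (37.5 ± 8.09), Amy2a5 (36.6 ± 6.65) and Amy2a2 (35.9 ± 12.4, SD, n = 3 each). Control libraries gave Amy2a3 (91.4 ± 12.3), Amy1 (86.4 ± 2.68), Amy2a1 (83.1 ± 11.3), Amy2a4 (78.4 ± 5.17), Amy2a2 (72.2 ± 4.51) and Amy2a5 (72.1 ± 6.37). In both groups each gene overlapped its neighbour in the order, so neighbouring ranks within these 6 are not settled. In control libraries Amy1, at 83.3 or more, lay above Amy2a2 (at most 75.4) and Amy2a5 (at most 79.4). That order depends on the transcript lengths used and on how shared reads were divided. Amy2b stood apart at 7.69 ± 0.65 in CAF_CM and 10.5 ± 6.32 in control libraries, with no overlap with the next gene.

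The shares of the copies in the cluster's reads were close in the 2 groups. Amy2a1 to Amy2a5 together took 86.5% ± 2.40 of the amylase reads in CAF_CM and 86.8% ± 1.23 in control libraries, and Amy1 took 11.8% ± 1.98 in CAF_CM and 12.0% ± 0.49 in control libraries (SD, n = 3 each). The log2 ratio of Amy1 to the summed Amy2a copies was -2.89 ± 0.27 in CAF_CM and -2.86 ± 0.08 in control libraries. The difference of -0.0351 had a 95% interval from -0.49 to 0.42 and was not past a two-sided exact permutation test (p = 1, adjusted over 2 ratios p = 1, where 0.1 is the smallest p that 3 against 3 allows). CAF_CM replicate 2 had the highest Amy1 share, 14.04%, against 10.5% and 10.7% in CAF_CM replicates 1 and 3. Without it the difference was -0.19 (exact permutation p = 0.1, the smallest possible).

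**Figure D3:**
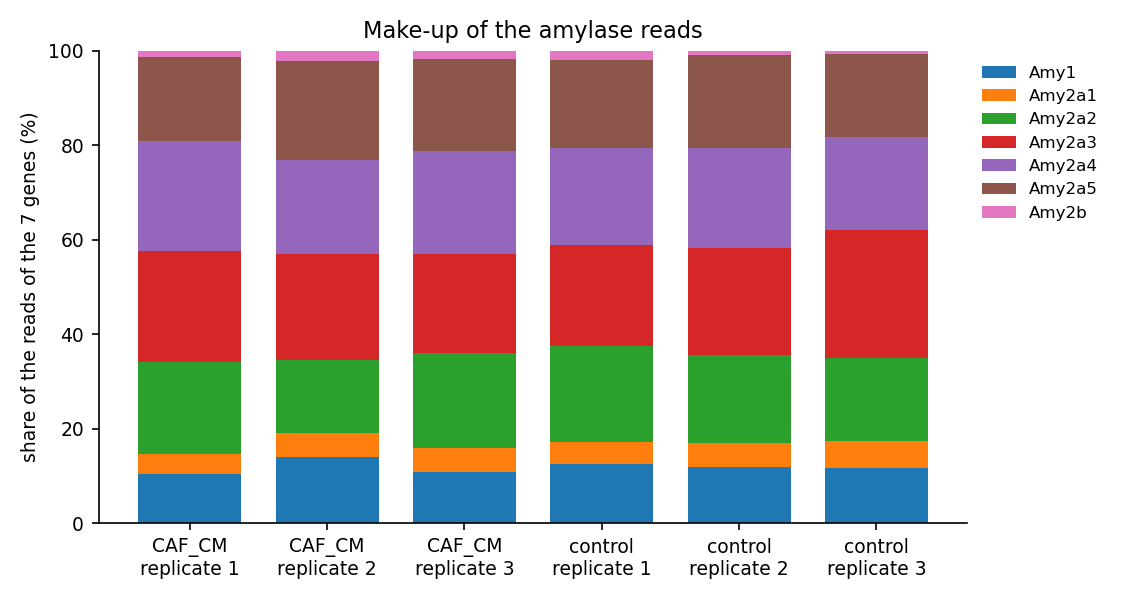
Share of the reads of the 7 amylase genes (y axis, percent) taken by each gene in each library, CAF_CM at the left and control at the right. Amy1 takes 10.5% to 14.04% in CAF_CM and 11.6% to 12.6% in control libraries, and Amy2a1 to Amy2a5 take most of the rest in all 6.

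Of the other digestive enzymes of the acinar cell, some fell and others did not pass the test. Of 25 listed genes 20 were in the table and 16 were tested. Of these, 7 fell and 0 rose, beside 16.1% lower and 18.3% higher over all genes tested, and the median log2 fold change was -0.36 beside 0.00459 over all genes. At an unadjusted p under 0.05, 1 enzyme gene was higher, and DESeq2 also called 1 higher, edgeR and limma-voom 0. The count of lower enzymes was 7 in edgeR, 6 in limma-voom and 5 in DESeq2, and it was 5 without CAF_CM replicate 3 or any 1 control library. Ctrb1, chymotrypsinogen B, had 25180.0, 24849 and 20975 normalized counts in CAF_CM, against 46221, 44664 and 44364 in control libraries (log2 fold change -0.93, SE 0.07, adjusted p = 1.21e-05). It was the most abundant enzyme transcript, at 26957 normalized counts per kilobase in CAF_CM and 51348 in control libraries. Its mean normalized count, not scaled for length, was 33.3 times that of the summed amylase genes in CAF_CM and 31.5 times in control libraries. By these counts, amylase was thus a minor part of the enzyme transcripts of this line. The amylase sum would be too low if reads that match several copies were left out, which the sources do not say.

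The elastase gene Cela1 had 6858, 8489 and 6803 normalized counts in CAF_CM, against 12962, 12619 and 12524 in control libraries (log2 fold change -0.79, SE 0.08, adjusted p = 4.98e-05). Pnliprp1, a lipase-related gene, fell by 0.69 on the log2 scale (adjusted p = 0.000535) and the trypsinogen gene Try5 by 0.37 (adjusted p = 0.00295). The other 3 that fell, all at under 31 normalized counts, were the elastase gene Cela2a (adjusted p = 0.00695), the trypsinogen gene Prss1 (0.0366) and the lipase gene Cel (0.0498). The carboxypeptidase gene Cpa1 had 2183, 2836 and 1820 normalized counts in CAF_CM and 2104, 2084 and 1998 in control libraries (adjusted p = 0.470). Trypsinogen gene Prss2 had 716, 478 and 563 in CAF_CM and 463, 469 and 465 in control libraries (adjusted p = 0.0602).

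Whether amylase fell more than the other enzymes was tested as the log2 ratio of amylase reads to the summed reads of the 20 other enzyme genes. Amylase was 1.998%, 1.27% and 2.31% of these enzyme reads in CAF_CM, against 2.01%, 2.23% and 2.16% in control libraries. The ratio differed by -0.24 (95% interval -0.98 to 0.50), which was not past the two-sided exact permutation test (p = 0.6, adjusted over 2 ratios p = 1). The groups overlapped, and the difference rested on CAF_CM replicate 2, without which it was 0.0115. In that library amylase stood at 36.6% of the control mean while the other enzymes stood at 61.8%. In CAF_CM replicates 1 and 3, amylase stood at 56.3% and 56.3% and the other enzymes at 60.1% and 51.8%. The other enzymes' sum is mostly Ctrb1, which made up 62.3% of it in CAF_CM and 68.7% in control libraries.

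**Figure D4:**
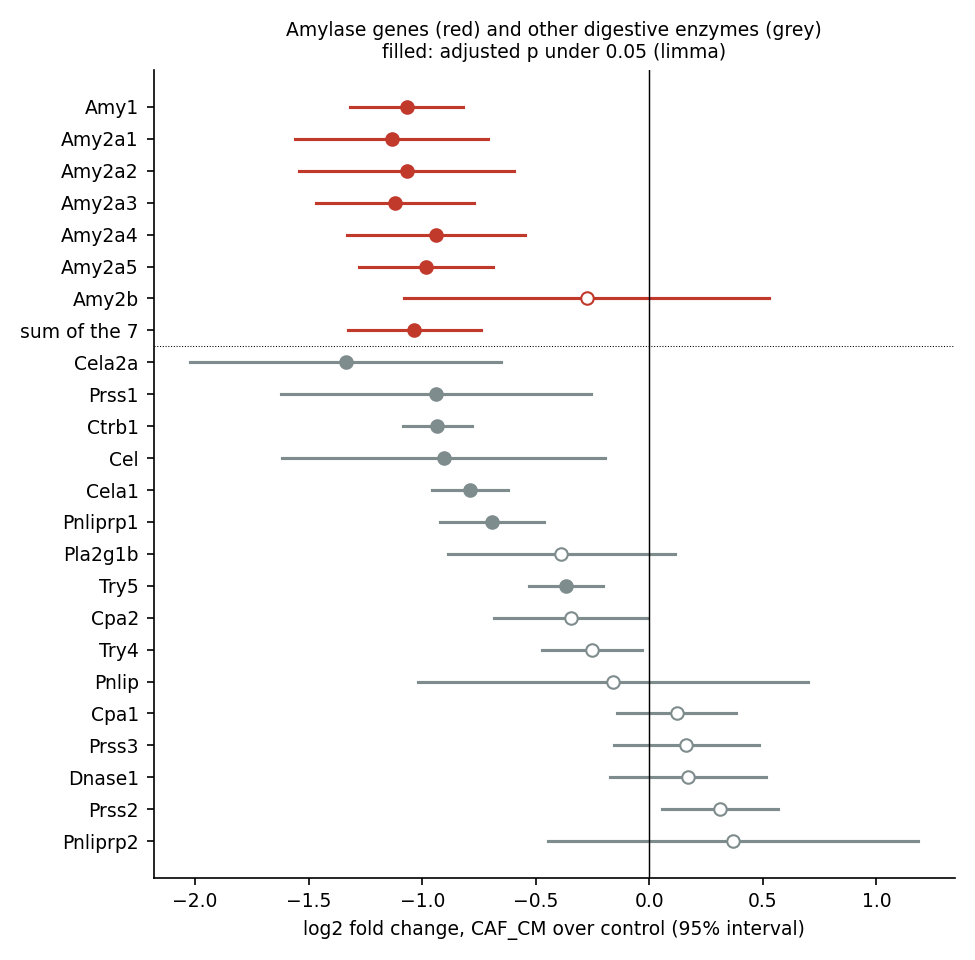
Log2 fold change of CAF_CM over control libraries (x axis) with its 95% interval for the 7 amylase genes and their sum (red) and for the 16 other digestive enzyme genes tested (grey), where filled points passed the adjusted p of 0.05. The 6 called amylase genes lie between -0.94 and -1.14, and the other enzymes spread from Cela2a at -1.34 to Pnliprp2 at 0.37.

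Regulators of acinar transcription moved in both directions. Of 19 genes, all tested, 9 rose and 2 fell, beside 18.3% higher and 16.1% lower over all genes tested, with a median log2 fold change of 0.15. The count of rises ranged from 6, without control replicate 1 or 2, to 10, without CAF_CM replicate 2. Rbpjl, the acinar-restricted subunit of PTF1, had 2907, 3021 and 3060.1 normalized counts in CAF_CM, against 5335, 5357 and 5255 in control libraries (log2 fold change -0.83, SE 0.04, adjusted p = 1.63e-06). Its paralog Rbpj, which takes its place in PTF1 of progenitor cells and serves the Notch pathway, rose by 0.48 (adjusted p = 5.77e-05). Ptf1a, which encodes the subunit specific to PTF1 that pairs with an E-protein, had 1002, 722 and 800.1 normalized counts in CAF_CM and 772, 750 and 738 in control libraries. Its log2 fold change was 0.15 (95% interval -0.07 to 0.36, adjusted p = 0.281). It was 0.0133 without CAF_CM replicate 1 (adjusted p = 0.887) and 0.25 without CAF_CM replicate 2 (adjusted p = 0.0362), so that it rests on single libraries. That library was the lowest of the 3 treated ones for Ptf1a as it was for amylase. The E-protein gene Tcf12 rose by 0.36 (adjusted p = 0.00134), while the E-protein gene Tcf3 was not called (0.08, adjusted p = 0.206). Pdx1, a pancreatic homeobox factor, rose by 0.31 (adjusted p = 0.000492).

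**Figure D5:**
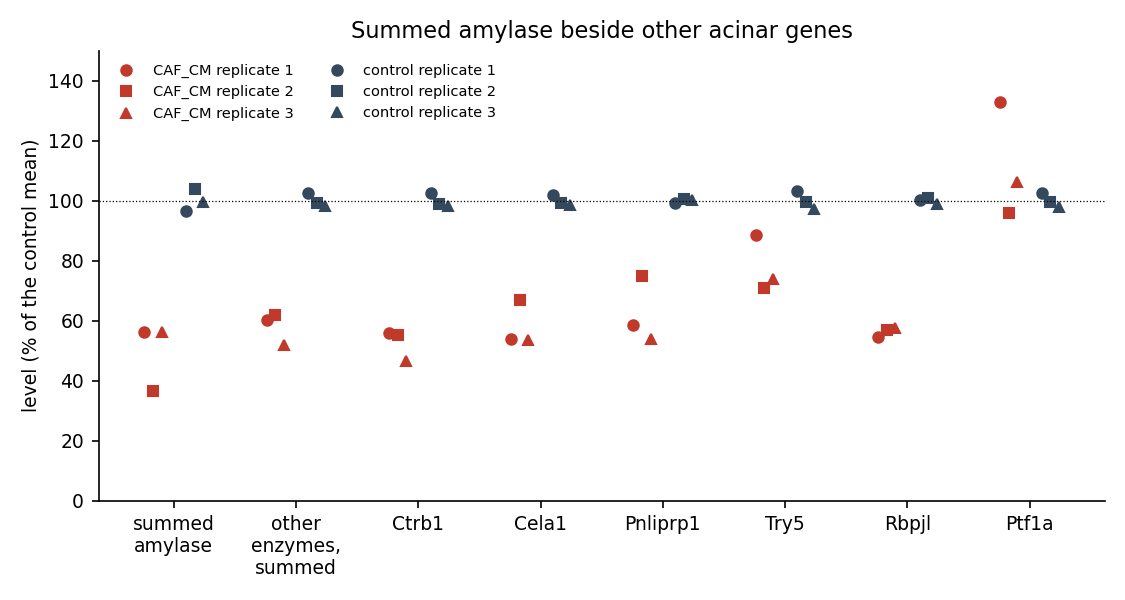
Level in each library as percent of the control mean (y axis) for the summed amylase genes, the summed other enzymes, 4 enzyme genes and the PTF1 subunits Rbpjl and Ptf1a. CAF_CM replicate 2 is the lowest library for amylase, at 36.6%, and also for Try5 and Ptf1a, but not for Ctrb1, Cela1, Pnliprp1 or Rbpjl.

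Genes of zymogen granules and secretion gave 1 rise and 1 fall in 11 tested, shares below the 18.3% higher and 16.1% lower over all genes, with a median of -0.18. Rab3d, a GTPase of the granule membrane, rose by 0.32 (adjusted p = 0.0105), and Vamp8, a SNARE of granule exocytosis, fell by 0.28 (adjusted p = 0.00876), a call lost without control replicate 1 (adjusted p = 0.0556). Without CAF_CM replicate 2, 5 of these genes were called lower. Genes that break down or build glycogen and starch, the substrates of amylase, gave 3 falls and 0 rises in 21 tested, a share of falls near the 16.1% of all genes, with a median of -0.0241. At an unadjusted p under 0.05, 2 of them were higher, and edgeR, DESeq2 and limma-voom called 0 higher. The 3 were the phosphorylase kinase subunit genes Phkg2 (-0.45, adjusted p = 0.00152) and Phka1 (-0.27, adjusted p = 0.0258), and the phosphoglucomutase gene Pgm1 (-0.44, adjusted p = 0.00359). Phka1 lost its call in DESeq2 (adjusted p = 0.0741) and without CAF_CM replicate 3 or control replicate 2 or 3 (adjusted p = 0.0620, 0.0863 and 0.117).

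The nearest coding genes on either side of the cluster did not pass the test. Rnpc3, a subunit of the minor spliceosome and the nearest coding gene on the Amy1 side, had 569, 454 and 522 normalized counts in CAF_CM and 534, 477 and 561 in control libraries (log2 fold change -0.0272, 95% interval -0.23 to 0.17, adjusted p = 0.848). Prmt6, an arginine methyltransferase gene and the nearest coding gene on the Amy2b side, had 451, 349 and 380 normalized counts in CAF_CM and 355, 354 and 395 in control libraries (0.0884, 95% interval -0.13 to 0.30, adjusted p = 0.522). The difference between these genes and the amylase sum was not tested. Farther out, the collagen gene Col11a1 fell by 0.41 (adjusted p = 0.00118) and Vav3 rose by 0.56 (adjusted p = 0.0310), a call lost in DESeq2 (0.156) and without any 1 library except CAF_CM replicate 1 (0.0652 to 0.0832). Ntng1 was at -0.0482 (adjusted p = 0.791) and Olfm3, at under 20 normalized counts, at 0.82 (adjusted p = 0.0641), which passed without control replicate 3 (adjusted p = 0.0249).

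The 5 genes most like the summed cluster over the 6 libraries were found among 10630 genes by the root mean square distance between centred log2 profiles. They were Snhg15, a small nucleolar RNA host gene (distance 0.0914 log2 units), Ikzf1, a zinc finger factor of lymphoid cells (0.0959), Penk, the proenkephalin gene (0.12), Irgm1, an interferon-inducible GTPase gene (0.17), and Reg1, a secreted acinar lectin (0.17). The profile of the sum itself had a root mean square of 0.56. All 5 were lowest in CAF_CM replicate 2 and had no overlap between groups. Penk had 1765, 1368 and 1737 normalized counts in CAF_CM, against 3064, 2977 and 2919 in control libraries. Reg1 had 2773, 1548 and 2590.2 normalized counts in CAF_CM, against 3744, 3653 and 3641 in control libraries. The genes were picked for this likeness, and no test is given.

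Among markers of other cell types, hepatocyte genes held the most falls and ductal genes the most rises, where 16.1% of all genes tested fell and 18.3% rose. Of 6 hepatocyte genes tested, among 7 found, 4 fell, and their summed level was 636 to 709 normalized counts in CAF_CM and 1102 to 1198 in control libraries. Of 7 ductal genes, 2 of 5 tested rose, the ductal factor gene Sox9 and the osteopontin gene Spp1, and the sum was 627 to 797 in CAF_CM and 484 to 537 in control libraries. Of 9 fibroblast genes, 1 of 7 tested rose, a call lost in DESeq2, and 1 fell, and the sum was 3168 to 3656 in CAF_CM and 3520.4 to 3716 in control libraries, mostly Pdgfrb. Of 4 islet genes, 1 of 2 tested, Chga, fell, and the sum was 22207 to 24083 in CAF_CM and 31048 to 31453 in control libraries. Of 5 immune and endothelial genes 2 were tested and 0 were called (limma, with 1 higher at an unadjusted p under 0.05, and 0 in edgeR, DESeq2 and limma-voom), and the sum was 85.2 to 123 in CAF_CM and 116 to 129 in control libraries. The immune marker Ptprc had at most 3.85 normalized counts, and Lyz2 was at 0 in CAF_CM replicate 3. The part of these markers in the amylase result was not tested.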

How the data were processed

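Total RNA of 3 CAF_CM and 3 control samples was sequenced after TruSeq library preparation, per the labels' protocols. FastQC, DESeq2 and hg19, a human build, stand in the submitters' processing notes, although the symbols are those of mouse. The sources used here give no aligner, counting program, strand setting or mouse build, so gene coordinates are printed only for RefSeq's own promoter sequences (GRCm38.p6).

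The deposited table holds a signal that is never negative, counts divided by 1 factor per library by the authors. Divided by the worth of 1 read (0.949 to 1.05 by library), 100% of the values came out whole within 0.001. These quotients were used as the recovered reads. Of 20764 rows, 168 without a symbol stayed out (0.153% to 0.261% of reads). No row totals under 10 reads.

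The main test, run in R 4.3.3, was limma 3.58.1 with a variance trend, applied to log2(value + 1) of the 16169 genes that reached 10 in 3 or more libraries, with Benjamini-Hochberg adjustment over all of them. Fold changes on this scale understate those of low genes. Ratios used a two-sided exact permutation test. Alternatives were pseudocounts of 0.5 and 5, no filter, a filter of 1 CPM in 3 libraries, TMM scaling, library totals, edgeR 4.0.16 with TMM or DESeq2's size factors, DESeq2 1.42.0 and limma-voom on recovered reads, separate group weights, a replicate block, and each library left out. Over the same 16169 genes, edgeR with TMM called 2888 higher and 2682 lower.

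The members and lists were chosen with earlier results of these data known. The lists are other digestive enzymes, acinar transcription regulators, zymogen granule and secretion, starch and glycogen, and markers of fibroblasts, ducts, islets, immune and endothelial cells and hepatocytes, matched by symbol. Genes named are the members, up to 4 called genes of each of the first 4 lists by lowest adjusted p, Ptf1a and Rbpjl, the 3 nearest coding genes on each side by RefSeq order, and the 5 most like profiles among genes with a mean of at least 100 normalized counts. Cela2a, Prss1, Cel, Cpa1, Prss2, Pnliprp2, Tcf3, the marker genes named and the acinar markers were named after their values were seen. All 8 promoter starts of the 7 genes matched RefSeq by symbol.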

Additional observations from a re-analysis of the deposited data

How the results depend on the processing

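The sum of the amylase genes stayed lower and past the threshold in every alternative run, with log2 fold changes of -1.14 to -0.83 when 1 library was left out and -1.08 to -1.02 otherwise, and adjusted p of 2.68e-06 to 0.00262. All of these gave 6 amylase genes lower and 0 higher. With the replicate block the sum kept its value of -1.03 (adjusted p = 3.88e-05), the block changed no call on an amylase gene, and all genes called were 3166 higher and 2755 lower. Replicate numbers are not said to pair samples. Deviations of same-numbered libraries had correlations near 0, at 0.0703, 0.0291 and 0.0305, each the highest for its CAF_CM library. Other pairs of libraries ranged from -0.0457 to 0.0174. Left-out libraries moved the Amy1 to Amy2a difference between -0.19 and 0.0540, the amylase to other enzymes difference between -0.43 and 0.0115, and the counts over all genes between 1865 and 3497 higher and between 1612 and 2945 lower, the fewest without control replicate 1. Without control replicate 2 there were 1963 higher and 1667 lower, and without control replicate 3 there were 1678 lower. They turned the sign of values that had not passed the test: Amy2b ranged from -0.58 to 0.16, Ntng1 from -0.0964 to 0.0374, Prmt6 from -0.0146 to 0.17 and Rnpc3 from -0.10 to 0.0603. Among enzymes, 1 gene was higher in DESeq2, with separate group weights and with the replicate block, against 0, and left-out libraries gave 0 to 1. Enzymes called lower ranged from 5 to 8 over all alternatives, against 7. Acinar regulators called lower ranged from 1 to 2 and granule genes called lower from 0 to 5 under left-out libraries. Starch and glycogen genes numbered 5 lower with library totals, against 3, and 0 to 1 higher under left-out libraries. The cause of these shifts was not tested. Amy2b, at 9 to 29 reads, is limited by depth, and the filter of 1 CPM in 3 libraries left it untested.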

Other observations

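Genes typical of liver, which with the salivary gland is a known site of Amy1 transcription in the mouse, were among those that fell. Albumin, Alb, had 62.8, 59.7 and 58.8 normalized counts in CAF_CM, against 193, 179.6 and 180.0 in control libraries (log2 fold change -1.59, SE 0.11, adjusted p = 7.55e-06, limma). The thyroxine carrier gene Ttr had 371, 442 and 359 normalized counts in CAF_CM, against 719, 723 and 633 in control libraries (-0.83, adjusted p = 9.15e-05). Apob, the main protein of liver lipoproteins, fell by 1.505 on the log2 scale (adjusted p = 0.000777) and the plasma glycoprotein gene Ahsg by 1.46 (adjusted p = 0.0119), the last at under 24 normalized counts. Apoa2 was at 0.20 (adjusted p = 0.579) and the transferrin gene Trf at -0.0207 (adjusted p = 0.903), so the list was not lower throughout. Unlike amylase, Alb and Ttr were not lowest in CAF_CM replicate 2. These genes were named after their values were seen, and a link of their fall to that of Amy1 was not tested.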
